A study of Mus musculus with 8 samples.

Results

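The genes described here are UDP-glucuronosyltransferases (UGTs) of mouse liver together with Ugdh, the enzyme that makes their sugar donor. They were chosen by gene symbol: Ugt2a3, Ugt2b1, Ugt2b5, Ugt2b34, Ugt2b35, Ugt2b36, Ugt2b38, Ugt3a1, Ugt3a2 and Ugdh. All 10 were found among the 41388 Ensembl features of the deposited tables. Liver RNA was sequenced from leptin receptor-deficient db/db mice, which become obese and diabetic, labelled as strain C57B/6J. The paper describes the mice as male. Littermates were randomised at 5 weeks of age, were given an adenovirus through the tail vein, and were 10 weeks old at sampling. The vector encoded GFP in the control group, AdGFP (4 mice), or NAMPT, the enzyme that limits NAD salvage, in the other group, AdNAMPT (4 mice). The series text gives 4 to 5 weeks of overexpression. The paper names shorter times after adenovirus delivery, in its methods and for adipose tissue of db/db mice. All mice therefore shared the db/db background and an adenoviral vector. The genotype label reads control for AdGFP and NAMPT overexpression for AdNAMPT. An adenovirus given by vein mainly reaches the liver, and the sources used here do not state how many hepatocytes carried it.

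UGTs sit in the membrane of the endoplasmic reticulum and join a sugar to small lipophilic molecules so that these can leave in bile or urine. Enzymes of the UGT2 family take glucuronic acid from UDP-glucuronate and conjugate steroids, bile acids, fatty acids and many drugs, while UGT3A enzymes use other UDP sugars. Ugdh oxidises UDP-glucose to UDP-glucuronate in the cytosol, and hepatocytes are a main site of the whole pathway.

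The 7 Ugt2 genes lay in 1 cluster of 534 kb on chromosome 5 (GRCm38, 86889767 to 87424203 in the deposited files), with Ugt2b35 on the plus strand and the others on the minus strand. In order along the chromosome they were Ugt2b34, Ugt2b1, Ugt2b35, Ugt2b36, Ugt2b5, Ugt2a3 and Ugt2b38. Ugt3a1 (chr15:9273319-9315032) and Ugt3a2 (chr15:9335550-9370955) were neighbours on the plus strand of chromosome 15. Ugdh was at chr5:65413202-65435946, outside the cluster. All 10 are annotated as protein coding, and none of their exons overlapped an exon of another feature.

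The promoters of 9 of the 10 genes were available from RefSeq (GRCm38.p6), as 250 bases before and 50 bases after the annotated start. They were searched for GTTA and TAAC separated by 5 bases, a pair that reads the same on both strands and was chosen after the sequences had been seen. The pair was present in 7 of the 9 promoters, which were those of all 6 Ugt2b genes and of Ugt3a1. It was present in 109 of 32851 mouse promoters of the same length (0.332%). This share is a description and not a test, because the pair was chosen with these promoters in view. Some of them are also alike over their whole length (84.2% identity for Ugt2b5 and Ugt2b38). Ugt2a3 and Ugdh were the 2 of the 9 without it. The search first planned was for GTTAAT on either strand. It was present in 2 of the 9 promoters, those of Ugt2a3 (at -54 and -47) and Ugt3a1, and in 2332 of the 32851 (7.10%). The windows around the pair are shown because this is the sequence that the Ugt2b genes share and that the choice of genes did not use; the pair and the bases inside it are in capitals, and each line reads 5′ to 3′ on the gene's own strand.
Ugt2b1, chr5:86926565-86926607, minus strand: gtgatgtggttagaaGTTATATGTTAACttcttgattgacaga
Ugt2b5, chr5:87140374-87140416, minus strand: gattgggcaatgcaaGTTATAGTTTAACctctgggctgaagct
Ugt2b34, chr5:86906983-86907025, minus strand: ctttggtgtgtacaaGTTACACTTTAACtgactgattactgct
Ugt2b35, chr5:87000775-87000817, plus strand: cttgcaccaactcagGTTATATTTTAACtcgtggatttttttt
Ugt2b36, chr5:87092592-87092634, minus strand: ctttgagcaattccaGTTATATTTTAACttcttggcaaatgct
Ugt2b38, chr5:87424240-87424282, minus strand: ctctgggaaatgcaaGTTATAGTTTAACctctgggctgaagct
Ugt3a1, chr15:9279684-9279726, plus strand: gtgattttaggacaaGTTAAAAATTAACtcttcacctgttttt

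The pair began 61 to 89 bases upstream of the start in the Ugt2b genes (-61 in Ugt2b5, -64 in Ugt2b36 and Ugt2b38, -70 in Ugt2b35, -73 in Ugt2b34, -89 in Ugt2b1) and at -130 in Ugt3a1. These distances are from the RefSeq start, which is not always the first base of the feature in the deposited files. It lies inside the feature for Ugt3a1, Ugt2b1 and Ugdh, and outside it for Ugt2b5. The letters in capitals were the same in Ugt2b35 and Ugt2b36, and the same in Ugt2b5 and Ugt2b38. The letters of Ugt2b5 were also found in Ugt2b37, a gene of the cluster that is not among the 10, where the pair began at -78. The promoter windows of the 8 Ugt1a genes in the RefSeq table and of Ugt2a1, Ugt2a2 and Ugt8a did not hold the pair. Those of Ugt1a1, Ugt1a6a, Ugt1a9 and Ugt1a10 held GTTAAT on 1 of the strands. A match describes letters in a window and is not a measured binding site.

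**Figure D1:**
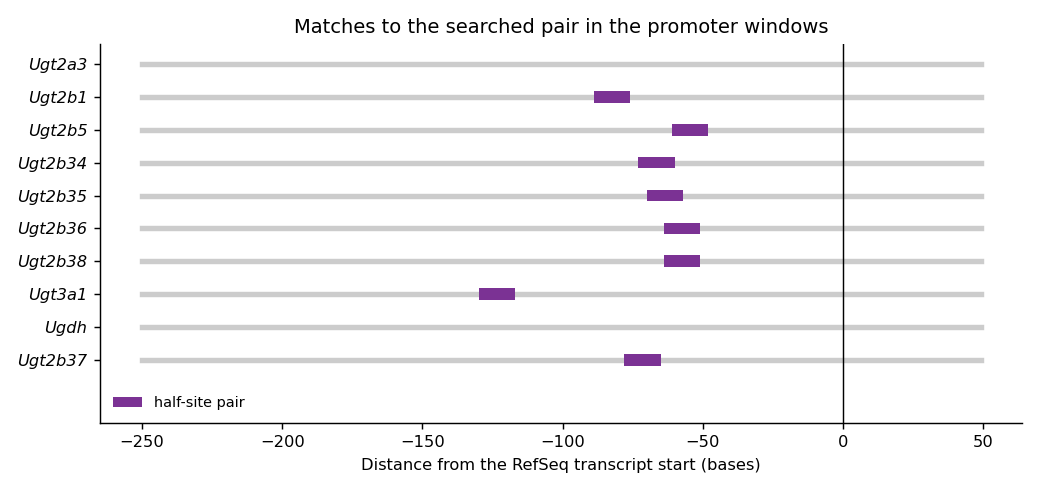
Each grey line is a promoter window from 250 bases before to 49 bases past the first transcribed base, with distance from the RefSeq start in bases on the x axis. Purple blocks mark the GTTA and TAAC pair; the first base of the pair lies between -89 and -61 in all 6 Ugt2b genes of the list and in Ugt2b37 at -78, and at -130 in Ugt3a1, while Ugt2a3 and Ugdh have no block.

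The upstream parts of 2 promoters are shown whole. Ugt2b35 had the smallest unadjusted p of the 10 genes between the groups, and Ugt2b36 was the most abundant per exonic length; the pair is again in capitals.
Ugt2b35, chr5:87000610-87000859, plus strand: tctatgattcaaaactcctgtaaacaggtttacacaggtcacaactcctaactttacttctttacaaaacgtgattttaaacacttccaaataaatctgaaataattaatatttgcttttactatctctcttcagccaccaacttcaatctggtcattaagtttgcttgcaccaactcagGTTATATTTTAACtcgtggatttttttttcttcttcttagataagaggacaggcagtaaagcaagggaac
Ugt2b36, chr5:87092556-87092805, minus strand: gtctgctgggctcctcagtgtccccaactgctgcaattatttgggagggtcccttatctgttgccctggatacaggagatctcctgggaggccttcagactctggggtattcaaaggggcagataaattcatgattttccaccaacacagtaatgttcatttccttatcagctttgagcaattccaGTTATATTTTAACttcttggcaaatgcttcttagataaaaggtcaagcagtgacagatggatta
Over the whole windows, Ugt2b5 and Ugt2b38 were the most similar promoters of the list, with 261 of 310 aligned positions identical (84.2%). Ugt2b36 and Ugt2b35 matched at 194 of 333 (58.3%), and the promoter of Ugdh matched those of the UGT genes at between 38.9% and 46.8%.

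Total counts per library ranged from 12006713 to 19879814. At these depths 3 counts, the floor used here, were equal to 0.151 to 0.250 CPM (counts scaled to the library total). Nampt, the transferred gene, did not separate the groups: it was at 102.3 to 152.7 CPM in AdGFP and at 120.5 to 177.8 CPM in AdNAMPT (log2 fold change 0.08, SE 0.15, limma adjusted p = 0.915). The groups are therefore the libraries labelled AdGFP and AdNAMPT. AdNAMPT replicate 1 stood apart from the other 7 livers in genes that differ between the sexes, with values given further on, and the comparison was made with and without it. Ribosomal RNA features took 1.77% to 2.63% of counts in AdGFP and 0.863% to 1.62% in AdNAMPT, and Gm42418, which overlaps ribosomal RNA sequence, took 0.996% to 2.25% and 0.2001% to 0.233%; their part in the results was not tested. Summed hepatocyte markers were at 95152 to 121177 CPM in AdGFP and 94926 to 119227 CPM in AdNAMPT. The 5 intestinal epithelium markers summed to 87.8 to 119.7 CPM in AdGFP and 62.3 to 194 CPM in AdNAMPT, with Alpi and Cdx2 at 0 in every library. Only 1 of these 5 exceeded 1 CPM in 3 or more libraries. The 5 exocrine pancreas markers summed to 5.41 to 10.3 CPM over the 8 livers, with Cpa1 and Amy2a5 at 0, and the 5 kidney proximal tubule markers to 0.615 to 1.83 CPM, with Kap at 0.

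Levels between genes were compared per exonic length, as RPKM (CPM divided by the length of the exons in kilobases). Averaged over the 8 livers, Ugt2b36 was highest at 391 RPKM (353 to 477). It was followed by Ugt2b1 at 293 (175 to 524), Ugt2a3 at 282 (229.6 to 399), Ugt2b5 at 248 (205 to 372) and Ugt3a2 at 199 (180.2 to 217). The ranges of neighbours in this upper part of the order overlapped, and Ugt2b1 exceeded Ugt2a3 in only 4 of 8 livers. Ugt2b34 came next at 127 RPKM (114 to 141), then Ugt2b35 at 81.4 (57.9 to 102), Ugt3a1 at 32.4 (29.5 to 36.3), Ugdh at 22.2 (19.6 to 24.7) and Ugt2b38 at 0.178 (0 to 0.749). From Ugt3a2 downwards no range overlapped that of the next gene. Of the summed RPKM of the 9 UGT genes, Ugt2b36 contributed 23.8% on average, and the 4 genes Ugt2b36, Ugt2b1, Ugt2a3 and Ugt2b5 together contributed 70.2% to 78.6% in each liver. The order depended on the length correction: by CPM, only 3 of the 10 genes kept their place, and Ugt3a2, with its exons of 3102 bases, held place 3.

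**Figure D2:**
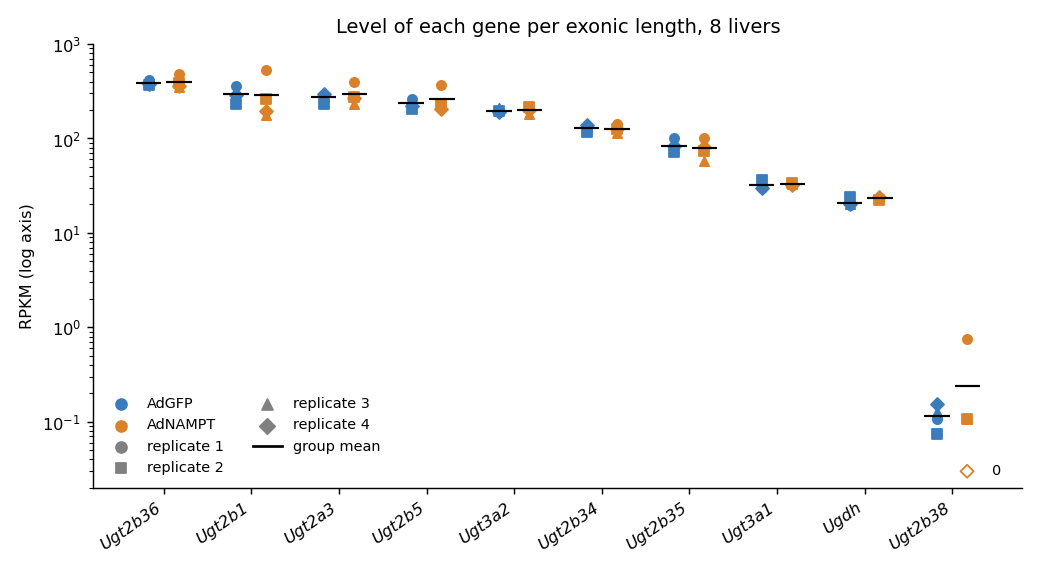
RPKM on a log axis for each gene in each of the 8 livers, with genes ordered by mean RPKM; blue is AdGFP, orange is AdNAMPT, the marker shape is the replicate number and the bar is the group mean. The genes from Ugt2b36 to Ugdh lie between 19.6 and 524 RPKM, Ugt2b38 is below 1 RPKM in every liver, and the open symbol stands for the liver with no read of Ugt2b38.

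Ugdh, which supplies UDP-glucuronate, had levels of 134, 162, 136 and 139 CPM in the AdGFP livers, listed here and below from replicate 1 to replicate 4, and of 155, 153, 168 and 163 CPM in the AdNAMPT livers. Of the AdGFP livers, 3 lay below every AdNAMPT liver and the fourth, replicate 2, lay within the AdNAMPT range. Mean CPM was 143 ± 13.1 for AdGFP and 159.8 ± 6.79 for AdNAMPT (mean ± SD of 4 livers each). The fitted difference on the log2 scale was 0.09 (SE 0.08, limma adjusted p = 0.761), and its 95% interval allows a level between 0.942 and 1.202 times that of AdGFP.

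Ugt2b36, the most abundant of the UGT genes, was at 858, 751, 819 and 773 CPM in AdGFP and at 983, 789, 726 and 739 CPM in AdNAMPT. AdNAMPT replicate 1 was the highest of the 8 livers, AdNAMPT replicates 3 and 4 were the lowest, and the groups overlapped. The fit gave a log2 fold change of -0.13 with SE 0.09 (limma adjusted p = 0.677), and an interval of 0.797 to 1.04 times the AdGFP level.

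Ugt2b1 varied most among the 9 genes that passed the filter on low counts. It was at 923, 599.9, 801 and 734 CPM in AdGFP and at 1349, 667, 452 and 506 CPM in AdNAMPT. The AdNAMPT group held both the highest liver (replicate 1) and the lowest ones (replicates 3 and 4), with 2.99-fold between the extremes, where the 8 livers spanned 1.21-fold for Ugt3a2. The coefficient of variation was 17.6% in AdGFP and 55.7% in AdNAMPT. Mean CPM was 764 ± 135 for AdGFP and 743 ± 414 for AdNAMPT (mean ± SD of 4 livers each). The fitted log2 fold change, in which AdNAMPT replicate 1 received the lowest sample weight (0.440), was -0.41 (SE 0.22, limma adjusted p = 0.601). The interval ran from 0.534 to 1.05 times the AdGFP level.

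Ugt2b5 was at 485, 381, 473 and 413 CPM in AdGFP and at 691, 433, 427 and 386 CPM in AdNAMPT. Ugt2a3, whose human counterpart conjugates bile acids, was at 610.5, 486, 580.1 and 621 CPM in AdGFP and at 845, 581, 489 and 562 CPM in AdNAMPT. In both genes AdNAMPT replicate 1 was above all other livers and, in CPM, the remaining 3 AdNAMPT livers lay within the AdGFP range. The fit used counts scaled by TMM factors (trimmed mean of M values). On that scale AdNAMPT replicates 3 and 4 of Ugt2b5 (412.5 and 385.4) lay below the AdGFP minimum of 414.0. The same held for AdNAMPT replicate 3 of Ugt2a3 (472.8, with an AdGFP minimum of 528.0). The fitted log2 fold changes were -0.08 (SE 0.13) for Ugt2b5 and -0.10 (SE 0.12) for Ugt2a3, with limma adjusted p = 0.884 and 0.840. Their plain CPM means were higher in AdNAMPT (484 against 438 CPM for Ugt2b5 and 619 against 574 CPM for Ugt2a3), so these estimates had the opposite sign to the difference in plain means.

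Ugt2b34 had the narrowest range of the Ugt2 genes tested, 1.23-fold between the extremes, at 537, 510.0, 554 and 599 CPM in AdGFP and at 609.7, 548, 494 and 538 CPM in AdNAMPT. Its estimate on the log2 scale was -0.13 (SE 0.08, limma adjusted p = 0.641). Ugt2b35, the only gene of the cluster on the plus strand, was at 176, 127, 139.8 and 148 CPM in AdGFP and at 179, 131, 102 and 143 CPM in AdNAMPT. Its log2 fold change of -0.29 (SE 0.14) had the smallest unadjusted p of the 10 genes (0.0611, limma adjusted p = 0.542). In CPM the livers of the 2 groups were interleaved for both genes. On the TMM scale this held for Ugt2b35 only. For Ugt2b34, AdNAMPT replicates 2, 3 and 4 (548, 477 and 537) then lay below the AdGFP range of 554 to 626. AdNAMPT replicate 1 (590) lay inside that range.

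The UGT3A pair varied little. Ugt3a2 was at 598, 606, 653 and 594 CPM in AdGFP and at 639, 674, 559 and 615 CPM in AdNAMPT, a log2 fold change of -0.06 (SE 0.08, limma adjusted p = 0.856). Ugt3a1 was at 78.9, 96.8, 86.5 and 79.9 CPM in AdGFP and at 86.0, 89.5, 88.7 and 86.2 CPM in AdNAMPT, a log2 fold change of -0.03 (SE 0.08, limma adjusted p = 0.953). The 4 AdNAMPT livers lay inside the AdGFP range for Ugt3a1, with a coefficient of variation of 2.03%.

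Ugt2b38 was nearly silent, with 3, 2, 4 and 4 reads in the AdGFP livers and 17, 3, 4 and 0 reads in the AdNAMPT livers. It did not reach 1 CPM in 3 libraries and was the 1 gene of the 10 below the filter. Most libraries were at or near the floor of 3 counts, and a count of 0 in AdNAMPT replicate 4 allows up to 3 counts. A fit without the filter put its log2 fold change at -0.48 (SE 0.77, limma adjusted p = 0.928). Mean CPM went the other way, at 0.455 in AdNAMPT and 0.219 in AdGFP, with 17 reads in AdNAMPT replicate 1. The part of the small count added before the logarithm in this estimate was not tested. No difference was detectable at this depth.

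Across the 9 genes tested, the livers labelled AdNAMPT did not differ from those labelled AdGFP beyond the spread between mice: 0 of 9 passed an adjusted p of 0.05, in a fit that called 34 of 12270 genes (0.277%). None of the 9 had an unadjusted p under 0.05, which 9.69% of all genes had, and the groups overlapped in 9 of 9, where 4.79% of all genes did not overlap on the scale of TMM factors (trimmed mean of M values). The estimate was below 0 for 8 genes and above 0 for Ugdh, with a median of -0.10, against 0.0015 over all genes tested. The plain CPM mean was nevertheless higher in AdNAMPT for Ugt2b36 (809 against 800 CPM), Ugt3a2 (622 against 613) and Ugt3a1 (87.6 against 85.5). The same held for Ugt2b5 and Ugt2a3, while it was lower for Ugt2b1, Ugt2b34 and Ugt2b35. The count of 8 therefore does not describe the plain means. On the TMM scale the mean was lower in AdNAMPT for Ugt2b36 (795 against 845), Ugt3a2 (612 against 647) and Ugt3a1 (86.1 against 90.4). It remained higher in AdNAMPT for Ugt2b5 (475 against 462) and Ugt2a3 (608 against 606). The fit of all 8 livers was informative about large changes. Each of the 9 genes had 1032 to 16196 reads per library. In that fit all 9 intervals lay within 2-fold in either direction and 7 of 9 lay within 1.5-fold. Over the 18 alternatives the log2 estimate for Ugt2b1 ran from -0.637 to -0.143. The intervals of those fits are not given here. In whole liver, fewer cells of a type and less RNA per cell cannot be told apart.

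**Figure D3:**
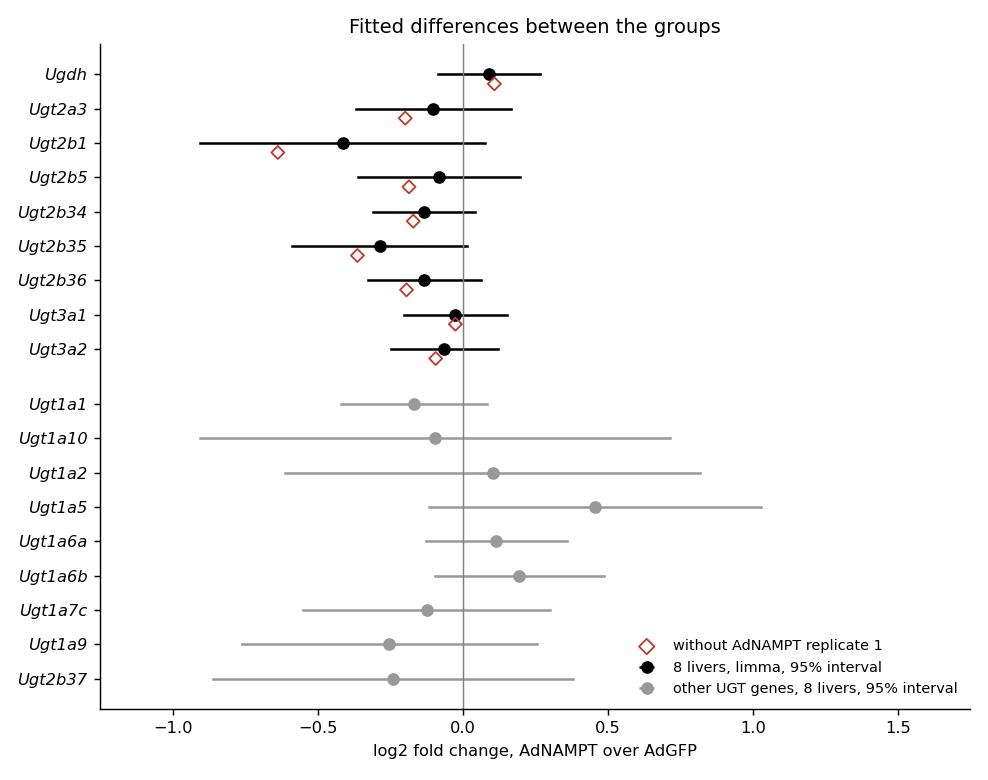
Fitted log2 fold changes of AdNAMPT over AdGFP (x axis) with 95% intervals from limma over all 8 livers, in black for the 9 genes tested and in grey for the other UGT genes tested; open red diamonds give the estimate without AdNAMPT replicate 1. Every interval includes 0, the widest black one belongs to Ugt2b1 (-0.41), and its diamond lies at -0.64.

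AdNAMPT replicate 1 was the highest of the 8 livers, on the TMM scale, for 4 of the 6 Ugt2 genes tested (Ugt2a3, Ugt2b1, Ugt2b5 and Ugt2b36), and AdNAMPT replicate 3 was the lowest for 6 of the 9 genes. Relative to the median of the other 3 AdNAMPT livers, replicate 1 was 2.58-fold higher for Ugt2b1, 1.62-fold for Ugt2b5, 1.46-fold for Ugt2a3, 1.33-fold for Ugt2b35, 1.29-fold for Ugt2b36 and 1.10-fold for Ugt2b34. The corresponding ratio was 1.01 for Ugt3a2, 0.966 for Ugt3a1 and 0.927 for Ugdh. The balance within the family moved as well, since the ratio of Ugt2b1 to Ugt2b36, both per length, was 1.10 in AdNAMPT replicate 1 and 0.497 in AdNAMPT replicate 3.

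**Figure D4:**
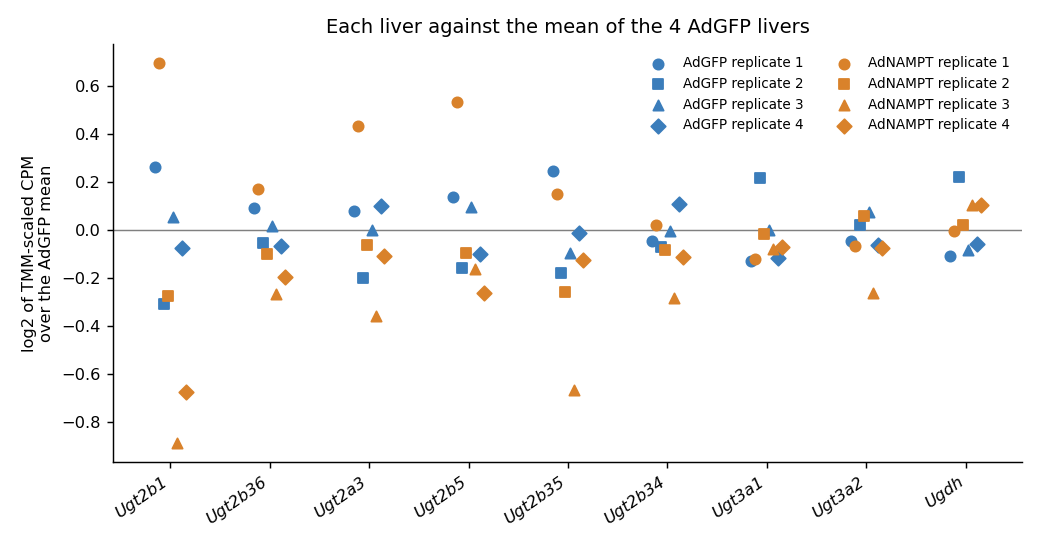
The log2 ratio of each liver to the mean of the 4 AdGFP livers, on TMM-scaled CPM, for the 9 genes tested; blue is AdGFP, orange is AdNAMPT and the marker shape is the replicate number. The orange circles (AdNAMPT replicate 1) stand highest for Ugt2b1, Ugt2b36, Ugt2a3 and Ugt2b5, the orange triangles (AdNAMPT replicate 3) stand lowest for 6 genes (Ugt2a3, Ugt2b1, Ugt2b34, Ugt2b35, Ugt2b36 and Ugt3a2), and Ugt3a1 and Ugdh show neither.

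This liver also stood apart in genes that differ between the sexes in mouse liver. The summed level of 18 male-biased genes was 10501 CPM in AdNAMPT replicate 1 and 2766 to 3793 CPM in the AdGFP livers, with 2846 to 4097 CPM in the other 3 AdNAMPT livers. The 16 female-biased genes summed to 284 CPM in AdNAMPT replicate 1, to 1409 to 1948 CPM in AdGFP and to 1483 to 1666 CPM in the other AdNAMPT livers. The paper describes the mice as male, and the Y-linked gene Ddx3y was at 97.1 to 136 CPM in all 8 livers. Xist was at 21.3 CPM in AdNAMPT replicate 4 and at no more than 0.500 CPM in the other 7. Whether these differences have a part in the Ugt2 levels was not tested.

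**Figure D5:**
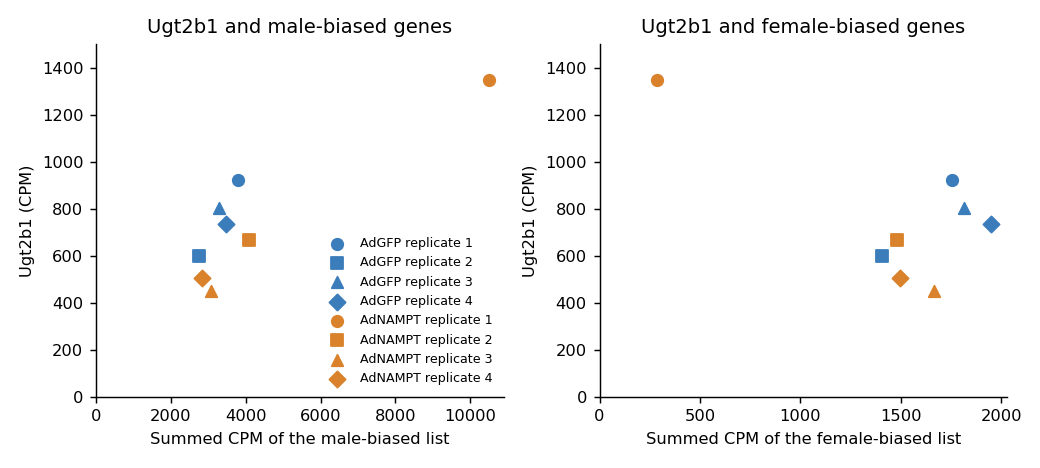
Ugt2b1 in CPM (y axis) against the summed CPM of the male-biased list (left) and the female-biased list (right), 1 point per liver; blue is AdGFP, orange is AdNAMPT and the marker shape is the replicate number. AdNAMPT replicate 1 lies alone, at 1349 CPM of Ugt2b1 with 10501 CPM of the male-biased and 284 CPM of the female-biased genes, and the other 7 livers form 1 cloud in each panel.

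Without AdNAMPT replicate 1, the estimates of the Ugt2 genes were further below 0 and still 0 of 9 were called, in a fit that called 38 of 12465 genes. For Ugt2b1 the estimate was then -0.64 on the log2 scale (SE 0.15, limma adjusted p = 0.176), with 541 ± 112 CPM in the remaining 3 AdNAMPT livers against 764 ± 135 CPM in AdGFP. Ugt2b35 was at -0.36 (SE 0.13, limma adjusted p = 0.396) and Ugt2b36 at -0.19 (SE 0.08, limma adjusted p = 0.454). Leaving out AdNAMPT replicate 3 instead moved the estimates towards 0, to -0.21 for Ugt2b1, -0.18 for Ugt2b35 and -0.08 for Ugt2b36. Ugt2b1 was at -0.61 when AdNAMPT replicate 2 was omitted, at -0.23 when replicate 4 was, and at -0.15 with both edgeR tests, -0.14 with DESeq2 and -0.25 without quality weights, all with an adjusted p above the threshold. In the fit without replicate 1, Ugt2b1, Ugt2b35 and Ugt2b36 had an unadjusted p under 0.05, as had 1306 of all genes (10.5%). Ugdh was at 0.11 (SE 0.09), Ugt3a1 at -0.03 (SE 0.09) and Ugt3a2 at -0.09 (SE 0.09), close to their values with all livers.

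The Ugt2 genes moved together from liver to liver. Over the 8 livers, the Pearson correlation of TMM-scaled log2 CPM had a median of 0.84 over the 15 pairs of Ugt2 genes, from 0.44 (Ugt2b5 and Ugt2b34) to 0.98 (Ugt2b1 and Ugt2b36). With AdNAMPT replicate 1 left out the median was 0.84, and with group means removed it was 0.86. The 6 pairs of a Ugt2 gene with Ugdh had correlations of -0.60 to -0.51, the 6 pairs with Ugt3a1 had -0.46 to -0.13, and the 6 pairs with Ugt3a2 had 0.13 to 0.58. Without AdNAMPT replicate 1 the ranges were -0.38 to 0.06 for Ugt3a1 and 0.39 to 0.67 for Ugt3a2. These are descriptions over livers that share library, depth and scaling, with no test. The 5 genes outside the list whose profile over the 8 livers was most like the mean standardised profile of the 9 genes were Foxn3 (r = 0.97), Mzf1 (0.96), Abhd13 (0.96), Zzz3 (0.96) and Slc22a28 (0.96). All 5 were highest in AdNAMPT replicate 1, Foxn3 for example at 39.9 CPM there and at 27.2 to 33.3 CPM elsewhere.

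How far the levels of single genes can be told apart depends on shared sequence, because only reads that aligned to 1 place were counted and reads were 50 bases long. Coding sequences of Ugt2b5 and Ugt2b38 were identical at 97.0% of aligned positions, those of Ugt3a1 and Ugt3a2 at 93.3%, and those of Ugt2b36 and Ugt2b35 at 88.5%. Of all 50-base stretches in the annotated transcripts of a gene, 100% were found in no other gene for Ugt2b1, 99.7% for Ugt2b36 and Ugt2b35, 98.6% for Ugt2b34, 98.2% for Ugdh, 95.5% for Ugt2a3, 93.0% for Ugt3a2 and 92.4% for Ugt3a1. The share was 62.6% for Ugt2b38 and 58.3% for Ugt2b5, which shared stretches mainly with each other and with Ugt2b37. The effect of this sharing on their levels was not tested. Ugt2b5 was 1391-fold above Ugt2b38 in mean RPKM (55724 and 37 reads over all libraries), and their promoters and coding sequences were the most alike of the list. Per 1000 reads of Ugt2b5 there were 0 to 0.708 reads of Ugt2b38 in 7 livers and 2.05 in AdNAMPT replicate 1.

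Of 13 further UGT genes listed, 12 were in the deposited files and 9 were tested; Ugt2a1 was not analysed here. None of the 9 was called, with 4 estimates above 0 and 5 below, and a median of -0.10. Ugt1a1, which conjugates bilirubin, was at 94.9 to 145 CPM over the 8 livers, Ugt1a9 at 43.1 to 104 CPM and Ugt1a5 at 43.6 to 145 CPM. Ugt1a5 had the smallest p of these (log2 fold change 0.46, SE 0.26, limma adjusted p = 0.627), followed by Ugt1a6b (0.20, SE 0.13, limma adjusted p = 0.683). Ugt1a genes share their last exons, so their counts rest on reads of the first exons alone. Ugt2b37, whose promoter held the same letters in capitals as Ugt2b5, was at 1.16 to 2.45 CPM.

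Genes around the glucuronidation step were likewise not called in the fit of all 8 livers. Of 15 genes tested for the supply and use of UDP-glucuronate, 0 were called, with 3 estimates above 0 and 12 below and a median of -0.13. Dcxr, a xylulose reductase of the glucuronate pathway, had -0.19 (SE 0.07, limma adjusted p = 0.465). Of 11 transporters of glucuronides and other organic anions, 0 were called, with 3 estimates above 0 and 8 below and a median of -0.04. Slc22a7, an organic anion transporter of the sinusoidal membrane, was at 5.15 to 8.41 CPM in AdGFP and at 2.87 to 6.25 CPM in AdNAMPT (-1.06, SE 0.19, limma adjusted p = 0.0625). Its adjusted p was between 0.0386 and 0.359 over all settings, and it was called lower without AdNAMPT replicate 1 (-1.09, limma adjusted p = 0.0459), without AdGFP replicate 2 (-1.14, limma adjusted p = 0.0386) and with DESeq2 (-0.86, adjusted p = 0.0487). Slco1a4, an uptake transporter, had -0.43 (SE 0.20, limma adjusted p = 0.527).

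Of 22 regulators of UGT genes, 0 were called, with 10 estimates above 0 and 12 below and a median of -0.01. Foxa2, a forkhead factor of hepatocytes, had 0.47 (SE 0.13, limma adjusted p = 0.338). Of 18 tested enzymes that conjugate by other routes, 0 were called, with 7 estimates above 0 and 11 below and a median of -0.10. Sult1a1, a sulfotransferase of phenols, had -0.31 (SE 0.12, limma adjusted p = 0.487), and Nat2, an arylamine acetyltransferase, had 0.21 (SE 0.09, limma adjusted p = 0.492).

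Among markers of other cell types, those of Kupffer cells, the macrophages of the liver, had the lowest median. The 6 Kupffer markers summed to 211 to 264 CPM in AdGFP and 154 to 254 CPM in AdNAMPT. All 6 estimates were below 0 with a median of -0.44, and 0 were called. Of the 6, 3 had an unadjusted limma p under 0.05, all lower, which 9.69% of all genes had. So did 1 hepatocyte marker (lower) and 1 marker each of cholangiocytes, sinusoidal endothelial cells and stellate cells (higher). Hepatocyte markers had 2 estimates above 0 and 6 below (median -0.19, 0 called). Markers of sinusoidal endothelial cells summed to 245 to 283 CPM and 277 to 306 CPM, those of stellate cells to 285 to 331 CPM and 318 to 335 CPM, and those of cholangiocytes to 26.7 to 42.2 CPM and 29.6 to 44.4 CPM in AdGFP and AdNAMPT. T cell markers summed to at most 4.13 CPM and B cell markers to at most 1.71 CPM in any liver. The part of cell composition in the UGT levels was not tested.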

How the data were processed

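The authors aligned single-end reads with STAR (2.4.0b per the labels) to GRCm38 and counted unambiguous, uniquely aligned reads per Ensembl gene with featureCounts (1.4.5) of Subread. The counts deposited are unnormalized whole reads; the deposited CPM are counts scaled to the library total, and the deposited RPKM are CPM per kilobase of exon. Whether counting used strand is not given in the sources used here. Library preparation is given as Ribo-Zero in the labels and as poly-A selection in the methods.

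Symbols came from GENCODE M21 on the same assembly (40340 of 41388 features matched). Following the study's methods, 355 ribosomal RNA features were left out, and 12270 genes passed a filter of more than 1 CPM in 3 or more libraries. Counts were scaled by TMM and fitted with voomWithQualityWeights, lmFit and eBayes of limma 3.58.1 (edgeR 4.0.16, R 4.3.3), with group as the only term; a gene was called when its p, adjusted by Benjamini-Hochberg, did not exceed 0.05 (adjusted over all genes tested). Tests are two-sided, log2 fold changes are AdNAMPT over AdGFP, intervals are 95%, and p-values from limma measure the spread between 4 mice per group. TMM-scaled log2 CPM used a prior count of 2. The fitting scripts were tested on simulated counts. Alternatives were edgeR's quasi-likelihood and exact tests, the DESeq2 1.42.0 Wald test, no quality weights, other scalings, other filters on low counts, ribosomal protein genes left out, a replicate block and each library left out.

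The 10 genes and all lists were chosen with earlier results of these data known. All 10 genes were named, with the 2 genes of smallest p in each pathway list (1 in each of 2 lists, the other being not reported here), Nampt and the 5 genes of most similar profile. Promoters shown are those of the gene with the smallest p and of the most abundant gene; the other windows, Gm42418, sex-linked genes, cell markers at 0, Ugt1a1, Ugt1a9 and Ugt2b37 were chosen after their values were seen. Identities are from global alignments (Biopython 1.88) and unique stretches from GENCODE M21 transcripts. The floor of 3 counts covers counting error only.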

Additional observations from a re-analysis of the deposited data

Results flagged for a closer look

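In groups of 4 livers, a value was singled out where its gap to the nearest other liver exceeded Dixon's 95% limit for the range of the group. Of 22 groups examined (the 10 genes and Nampt in both groups), 2 did so, where chance alone gives about 1 in 20, or 1.1. Both were AdNAMPT replicate 1: Ugt2b5, at 691 CPM where the other 3 AdNAMPT livers were at 386 to 433 CPM (gap over range 0.845), and Ugt2b38, at 1.42 CPM where the others were at 0 to 0.205 CPM (gap over range 0.855). The Ugt2b38 value rests on 17 reads. These 2 genes share many 50-base stretches, and the part of shared reads was not tested.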

How the results depend on the processing

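Of the 9 genes tested, 0 were called under any of the 18 alternatives, with a lowest adjusted p of 0.176; Ugt2b38 was tested in 1 alternative only, without the filter, and was not called. An unadjusted p under 0.05 occurred in 4 of the 18 alternatives for Ugt2b35, in 2 for Ugt2b1 and in 1 each for Ugt2b36 and Ugdh. For Ugdh this was with library size alone as scaling (0.17, limma unadjusted p = 0.0436). In the main fit 9.69% of all genes had an unadjusted p under 0.05. Of 163 recomputed log2 fold changes, 151 kept their direction. Those of Ugt2a3 turned to 0.0052 with edgeR's quasi-likelihood and exact tests and to 0.0072 with DESeq2, and those of Ugt2b5 to 0.039 with both edgeR tests, 0.041 with DESeq2, 0.019 without quality weights and 0.0044 with library size alone as scaling. Library size alone, which shifts the median of all genes by 0.0859, also turned Ugt3a1 to 0.060 and Ugt3a2 to 0.022. With each library left out, Ugt3a1 ranged from -0.0612 to 0.022 (above 0 without AdGFP replicate 2) and Ugt3a2 from -0.165 to 0.022 (above 0 without AdNAMPT replicate 3). All-gene calls were 66 with edgeR's exact test and 75 with DESeq2, against 34, and 28 to 38 with each library left out. Other genes of the pathway called numbered 0 in the main design, 1 with DESeq2 (Slc22a7, -0.86), 0 to 1 with each library left out (Slc22a7, -1.14 without AdGFP replicate 2 and -1.09 without AdNAMPT replicate 1) and 1 with the replicate block. Mice with the same replicate number in the titles were treated as unpaired. Their deviations from the group means correlated at 0.225, -0.0451, 0.2131 and 0.0052. The closest AdNAMPT library had the same number for AdGFP replicates 1 and 3 and another number for replicates 2 and 4. With 4 livers per group these values cannot decide whether the mice were paired. The replicate block called 41 genes and 0 of the 9. By CPM, 3 of the 10 genes kept their place in the order of levels. The cause of these changes was not tested. Counts at or near the floor of 3 limit Ugt2b38.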
